A study of Mus musculus with 10 samples.

Results

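The guanylate-binding proteins (GBPs) and the immunity-related GTPases (IRGs) are GTP-hydrolysing proteins that cells make in large amounts when interferon-gamma reaches them. The 10 genes described here are the rows of the liver RNA-seq table with the symbols Gbp2, Gbp3, Gbp4, Gbp5, Gbp6, Gbp7, Irgm1, Igtp, Iigp1 and Ifi47, 10 of 55291 genes in all. They were found by symbol, and all 10 passed the filter on low counts, which kept 17015 genes. The liver RNA-seq covered 10 female mice aged 16 to 20 weeks, 2 in the NTC-Veh group, 2 in sgBap1-Veh, 3 in NTC-CCl4 and 3 in sgBap1-CCl4. All mice carried a Cas9 gene behind a Lox-Stop-Lox cassette and received an AAV8 virus with a guide RNA and a Cre recombinase under the hepatocyte promoter TBG, so only cells that express this Cre can be edited while every liver cell type contributes RNA. The guide was a non-targeting control (NTC) or a guide against Bap1 (sgBap1), which encodes a nuclear deubiquitinase and tumour suppressor. After 10 days each mouse received CCl4, a solvent that hepatocytes turn into a toxic radical, as 1 part in 9 parts of olive oil at 10 µL per g of body weight, or olive oil alone (Veh), and the right liver lobe was taken 48 hours later. The labels do not say which mice shared a litter or a day, so the p-values measure the spread between the mice of these groups.

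Interferon-gamma, made mainly by T and NK cells, binds the receptor chains Ifngr1 and Ifngr2, which signal through the kinases Jak1 and Jak2. The signal reaches its genes through gamma-activated sites (GAS) and through interferon-stimulated response elements (ISRE), and Irf1 binds the latter. GBPs gather on membranes and on the surface of bacteria and help to set off the caspases of the inflammasome, and Irgm1 and Igtp are regulators that keep effector IRGs such as Iigp1 off the cell's own membranes. In liver these genes are inducible in hepatocytes, macrophages and endothelial cells alike. Bulk RNA cannot tell fewer or more cells of a type from less or more RNA per cell.

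The promoters are shown because these elements are the known route from the receptor to these genes. RefSeq promoters of GRCm38.p6 (250 bases before to 50 after the start) were at hand for 7 of the 10 genes, Gbp2, Gbp3, Gbp5, Gbp7, Irgm1, Igtp and Ifi47. They were searched on both strands for the GAS letters TTCNNNGAA and the ISRE core letters GAAANNGAA, which read TTCNNTTTC on the other strand. The ISRE core was found in 6 of the 7, against 8.56% of the 32851 promoters of the table, and GAS in 3 of the 7, against 8.3%. Gbp5, Gbp7 and Igtp held both, as did 1.07% of all promoters. Ifi47 held neither of these letter strings in its window. In the following stretches of 30 bases, which hold the matches nearest to each start, capitals mark the matched letters.
Gbp2: ctcttttagtTTCACTTTCactgtcttaag
Gbp3: acacagtTTCAGTTTCTATTTCccagatcc
Gbp5, first stretch: cttgtgtagtTTCAATTTCagtttagagaa
Gbp5, second stretch: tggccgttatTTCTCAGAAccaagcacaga
Gbp7, first stretch: aagcagaagcTTCTCAGAAagtcagcacaa
Gbp7, second stretch: tgtgtgcagtTTCAGTTTCagttctccatc
Irgm1: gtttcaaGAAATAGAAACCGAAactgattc
Igtp: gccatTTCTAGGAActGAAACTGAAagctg
The Gbp2 stretch lies at chr3:142620595-142620624, 68 to 39 bases before the RefSeq start, and partly in an annotated Gbp2 exon of GENCODE vM21. The Gbp3 stretch (chr3:142559993-142560022) and both Gbp7 stretches (chr3:142530239-142530268 and chr3:142530274-142530303) lie outside any annotated gene. The first Gbp5 stretch (chr3:142496760-142496789) lies in a Gbp5 intron and the second (chr3:142496872-142496901) partly in a Gbp5 exon, both upstream of the RefSeq start. The Irgm1 stretch (chr11:48871428-48871457, minus strand) lies in an annotated Irgm1 exon, and the Igtp stretch (chr11:58199506-58199535) lies outside any annotated gene. Gbp3 and Irgm1 each carry a pair of overlapping ISRE cores, and in Igtp a GAS and an ISRE core lie within one stretch. A match of letters is a description and does not show that a factor binds there.

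The 10 genes fall into clusters on 4 chromosomes of GRCm38. Gbp5 (ENSMUSG00000105504.4, chr3:142493978-142522344), Gbp7 (ENSMUSG00000040253.15, chr3:142530342-142550149), Gbp3 (ENSMUSG00000028268.14, chr3:142560026-142573209) and Gbp2 (ENSMUSG00000028270.12, chr3:142620602-142638008) stand in a row on the plus strand of chromosome 3. Gbp4 (ENSMUSG00000079363.7, chr5:105115767-105139586) and Gbp6 (ENSMUSG00000104713.4, chr5:105270702-105293698) lie on the minus strand of chromosome 5. Irgm1 (ENSMUSG00000046879.7, chr11:48861968-48871683), Ifi47 (ENSMUSG00000078920.3, chr11:49076587-49096974) and Igtp (ENSMUSG00000078853.8, chr11:58199556-58207591) are on chromosome 11, and Iigp1 (ENSMUSG00000054072.12) is on chromosome 18. Some of these genes share stretches of sequence with other genes, which limits how reads can be assigned. Of the stretches of 50 bases in the Gbp6 transcripts, 70.65% also occur in transcripts of another gene, chiefly the overlapping Gm43302, so the Gbp6 values are uncertain. The share was 12.74% for Gbp7, 11.77% for Igtp (with Irgm2, which overlaps it) and 7.7% for Gbp4, which overlaps Gbp8 and Gbp9 on the same strand, and at most 3.754% for the other 6. Ifi47 overlaps Olfr56 on the same strand.

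The libraries held 33047904 to 52199904 estimated counts, at which 3 counts correspond to 0.0511 to 0.112 CPM (counts scaled to a common library size). CPM values here are scaled by the trimmed mean of M-values (TMM), whose factors were 0.786 to 0.851 in vehicle and 1.08 to 1.24 in CCl4 livers. Bap1 itself was at 34.8 CPM in both NTC-Veh mice against 17.5 and 19.5 in sgBap1-Veh, and at 29.5 to 31.5 in NTC-CCl4 against 16.99 to 21.8 in sgBap1-CCl4. It was lower in the edited livers with vehicle (log2 fold change −0.91 ± 0.12 SE, adjusted p = 0.0208 by edgeR's quasi-likelihood test with Benjamini-Hochberg adjustment over the 17015 genes, where genes under 0.05 are called) and with CCl4 (−0.65 ± 0.10, adjusted p = 0.0295). One library stood apart: sgBap1-CCl4 mouse 2 held the adipocyte genes Adipoq at 36.4 CPM and Plin1 at 34.5 CPM, against at most 0.0425 and 0.0188 CPM in the other 9 mice. The hepatocyte markers Alb, Apoa1, Ttr, Cyp2e1, Ass1 and Cps1 were present above the 3-count floor in every mouse, so the label liver holds. With CCl4 all 6 fell in NTC livers. In sgBap1 livers all 6 had lower fitted values, of which edgeR's test called 3 and DESeq2's test 6.

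Levels per kilobase of exon, which can be compared between genes, spread widely, with Iigp1 and Igtp highest and Gbp4 and Gbp5 lowest in all 4 groups. Iigp1, an effector IRG, was the most abundant in NTC-Veh livers at 87.1 ± 19.5 CPM per kb (SD, n = 2), followed by Igtp at 36.3 ± 8.22. Ifi47 (12.95 ± 4.02) and Irgm1 (12.9 ± 1.04) overlapped, and Gbp3 followed at 6.77 ± 0.350. Gbp7 (6.26 ± 0.102) did not overlap Gbp6 (5.09 ± 1.51), although their means are close, and Gbp6 overlapped Gbp2 (3.70 ± 0.633). Gbp4 was at 0.939 ± 0.157 and Gbp5 was lowest at 0.366 ± 0.0335. In NTC-CCl4 livers, by contrast, the ranges of Iigp1 (57.7 ± 13.5, n = 3) and Igtp (41.9 ± 11.2) overlapped, as did those of each pair of neighbours from Irgm1 (18.2 ± 2.52) down through Gbp3, Ifi47, Gbp2 and Gbp6 to Gbp7 (8.97 ± 2.94).

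**Figure D1:**
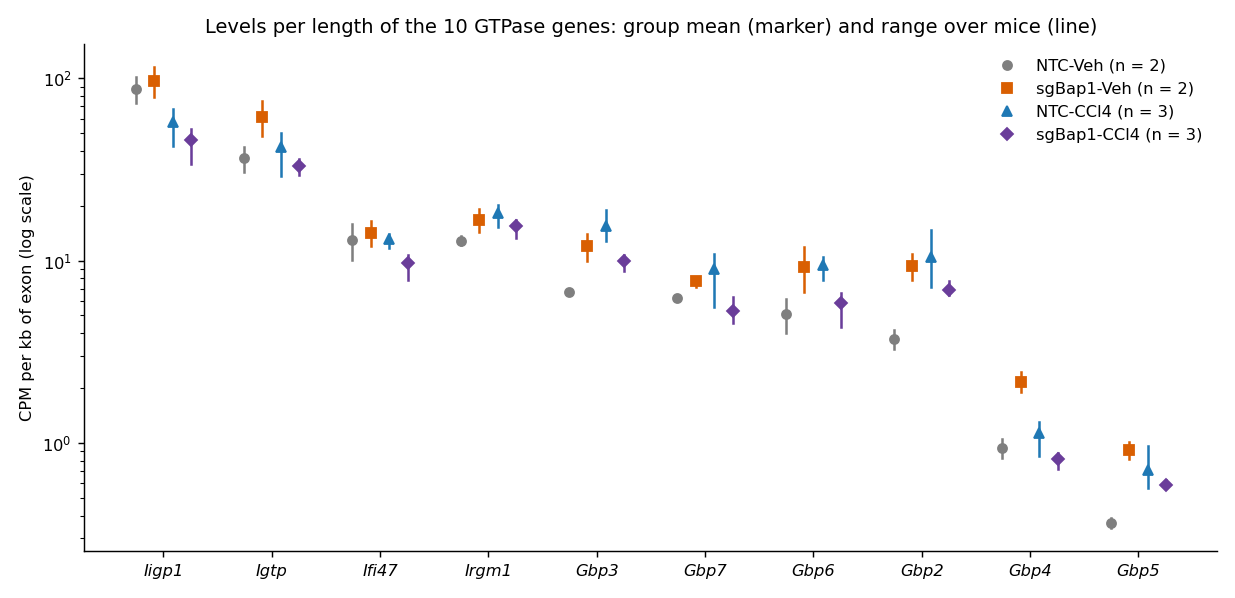
Level of each gene in CPM per kb of exon on a log axis, ordered by the NTC-Veh mean, with markers for group means and lines from the lowest to the highest mouse (n = 2 in each vehicle group, n = 3 in each CCl4 group). Iigp1 is highest in every group (87.1 in NTC-Veh, 46.1 in sgBap1-CCl4) and Gbp5 lowest (0.366 and 0.590).

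Of the GBPs of chromosome 3, Gbp2, Gbp3 and Gbp5 were lowest in NTC-Veh livers. Gbp2 was at 8.19 and 10.4 CPM in NTC-Veh mice, 19.6 and 27.4 in sgBap1-Veh, 23.7, 18.0 and 37.2 in NTC-CCl4, and 16.2, 16.3 and 19.5 in sgBap1-CCl4. Gbp3 was at 22.9 and 21.3 CPM in NTC-Veh mice, 32.7 and 45.5 in sgBap1-Veh, 61.7, 41.8 and 48.0 in NTC-CCl4, and 34.9, 28.5 and 34.3 in sgBap1-CCl4. For both genes all 8 other mice lay above the NTC-Veh pair. Gbp5, which promotes inflammasome assembly, was at 2.59 and 2.27 CPM in NTC-Veh mice, 5.44 and 6.70 in sgBap1-Veh, 4.09, 3.76 and 6.38 in NTC-CCl4, and 3.75, 3.83 and 4.17 in sgBap1-CCl4. The same order held for it, with the NTC-Veh mice lowest. Gbp7 was at 35.6 and 34.7 CPM in NTC-Veh mice, 40.4 and 45.8 in sgBap1-Veh, 59.0, 31.4 and 60.8 in NTC-CCl4, and 35.4, 25.6 and 27.7 in sgBap1-CCl4. Its NTC-CCl4 mice were split, with mouse 2 below both NTC-Veh mice.

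On chromosome 5, Gbp4 stood out in sgBap1-Veh livers. Gbp4 was at 7.87 and 6.21 CPM in NTC-Veh mice, 14.3 and 18.3 in sgBap1-Veh, 9.23, 6.39 and 9.81 in NTC-CCl4, and 5.40, 6.37 and 6.63 in sgBap1-CCl4. Both sgBap1-Veh mice lay above the other 8, and the ranges of the other groups overlapped one another. Gbp6 was at 36.6 and 23.9 CPM in NTC-Veh mice, 39.8 and 70.3 in sgBap1-Veh, 59.95, 46.6 and 62.1 in NTC-CCl4, and 39.4, 25.6 and 39.4 in sgBap1-CCl4. Its sgBap1-Veh mice lay far apart, and the sgBap1-CCl4 mice overlapped NTC-Veh and lay below both of the other groups.

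Irgm1 and Igtp are the regulators among the IRGs. Irgm1 was at 79.1 and 70.5 CPM in NTC-Veh mice, 83.9 and 111 in sgBap1-Veh, 117, 89.3 and 111 in NTC-CCl4, and 97.1, 77.5 and 96.3 in sgBap1-CCl4. Igtp was at 85.2 and 61.7 CPM in NTC-Veh mice, 97.5 and 151 in sgBap1-Veh, 93.4, 59.0 and 102 in NTC-CCl4, and 73.1, 59.8 and 66.4 in sgBap1-CCl4. Both were higher in each sgBap1-Veh mouse than in either NTC-Veh mouse. Iigp1 was at 587 and 427 CPM in NTC-Veh mice, 459 and 670 in sgBap1-Veh, 368, 247 and 394 in NTC-CCl4, and 300.5, 197 and 307 in sgBap1-CCl4. For Iigp1 all 4 vehicle mice lay above all 6 CCl4 mice. Ifi47 was at 39.1 and 25.0 CPM in NTC-Veh mice, 29.5 and 40.7 in sgBap1-Veh, 34.7, 29.0 and 34.3 in NTC-CCl4, and 26.5, 19.5 and 26.3 in sgBap1-CCl4, with overlap between the genotypes in vehicle.

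The genes moved together from mouse to mouse within a group. NTC-Veh mouse 1 was the higher of its pair for 9 of the 10 genes, all but Gbp2, and sgBap1-Veh mouse 2 for all 10. NTC-CCl4 mouse 2 was the lowest of its group for all 10 genes, and sgBap1-CCl4 mouse 2, the library with adipocyte RNA, for 7. The 10 genes are therefore not independent readings of a condition. In the NTC groups this order went with the summed markers of Kupffer cells, of T and NK cells, of B cells and of endothelial cells. The Kupffer cell sum was 303 CPM in NTC-Veh mouse 1 against 188, and 522 in NTC-CCl4 mouse 2 against 663 and 976. The T and NK cell sum was 5.61 CPM against 3.19, and 7.23 against 8.61 and 10.7. The B cell sum was 7.43 CPM against 3.46, and 8.81 against 9.93 and 11.5. The endothelial cell sum was 140 CPM against 133, and 151 against 169 and 174. The leukocyte sum and the monocyte and macrophage sum followed the order in NTC-Veh but not in NTC-CCl4. There mouse 2 lay between the other mice, with leukocyte sums of 227 CPM against 212 and 258. Its monocyte and macrophage sum was 587 CPM against 529 and 658. In sgBap1-Veh mouse 2 the Kupffer cell sum was the lower of the pair (394 against 586) and the T and NK cell sum was nearly the same (9.28 against 9.18). The B cell sum (8.38 against 9.88) and the endothelial cell sum (132 against 178) of that mouse were also the lower of the pair. In sgBap1-CCl4 mouse 2 the Kupffer cell and the T and NK cell sums were the highest of the group. There the B cell sum was the lowest of the group (7.62 CPM) and the endothelial cell sum lay between the other mice.

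**Figure D2:**
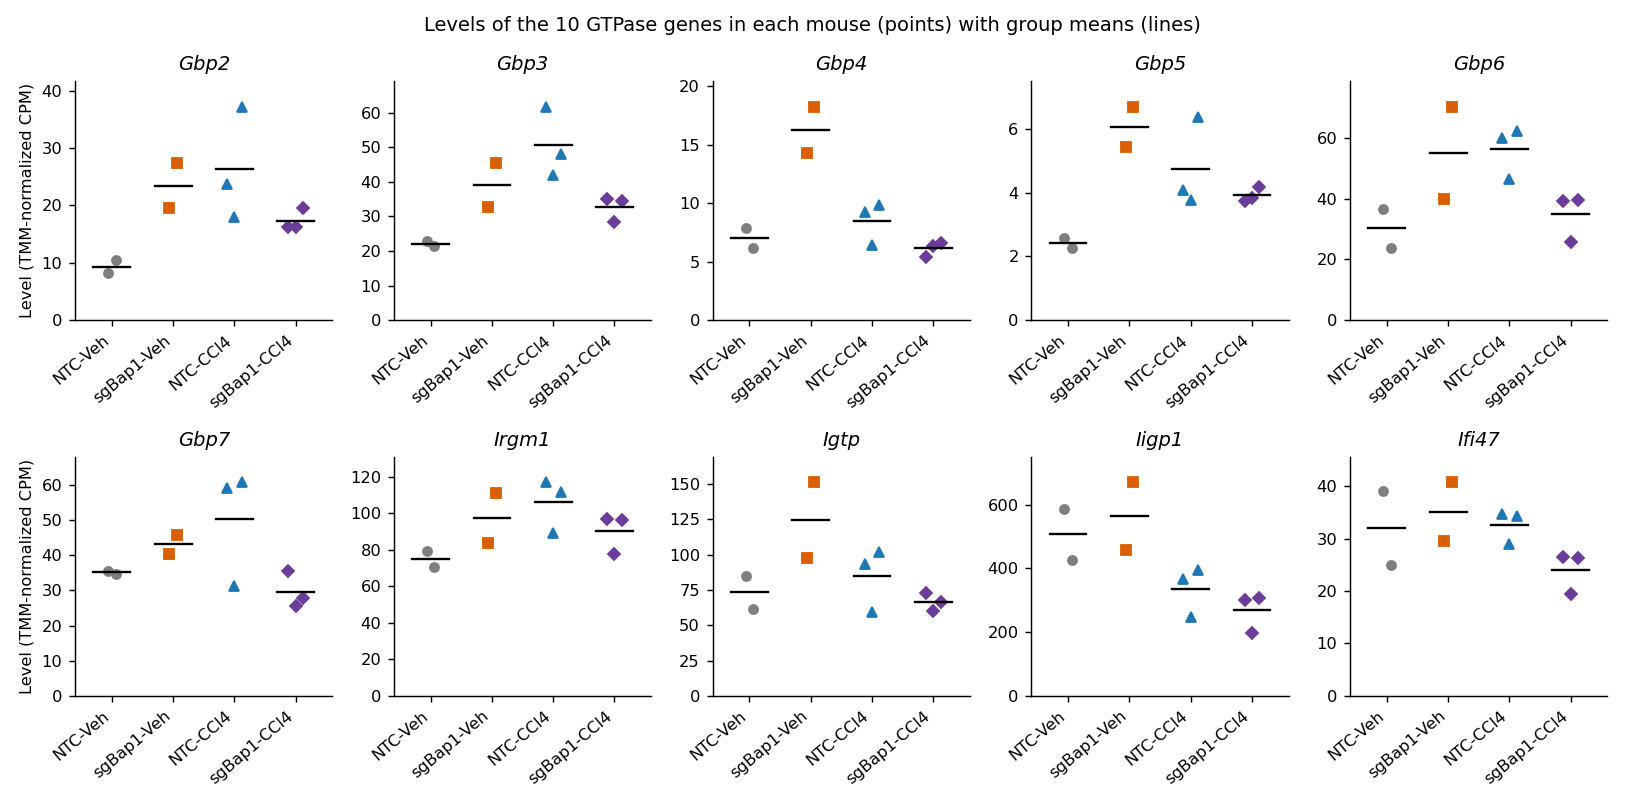
TMM-normalized CPM (y axis, from 0) of each of the 10 genes in each mouse (points) by group, with the group mean as a line. The sgBap1-Veh mice lie above NTC-Veh for 8 genes (as for 21.7% of all genes tested), and the sgBap1-CCl4 mice below sgBap1-Veh for 8 (34.9%).

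The comparison of sgBap1-Veh with NTC-Veh asks what loss of Bap1 in hepatocytes does to these genes without damage. All 10 had higher fitted levels in sgBap1-Veh livers, by a median of 0.79 on the log2 scale against 0.02 over all genes tested, but none passed edgeR's test, while 6 had an unadjusted p under 0.05 (Gbp2, Gbp3, Gbp4, Gbp5, Gbp6 and Igtp), as did 12.3% of all genes. Over all genes the test called 0.406% in either direction. Without sgBap1-Veh mouse 2 the median of the 10 was 0.40, with 8 of 10 positive. The fitted change was largest for Gbp2 (log2 fold change 1.33 ± 0.32 SE, 2.51-fold, 95% interval 0.61 to 2.05, adjusted p = 0.123), Gbp5 (1.31 ± 0.26, 2.49-fold, adjusted p = 0.0623) and Gbp4 (1.21 ± 0.22, 2.31-fold, adjusted p = 0.0526). Gbp6 (0.86 ± 0.33, adjusted p = 0.332), Gbp3 (0.82 ± 0.20, adjusted p = 0.121) and Igtp (0.76 ± 0.28, adjusted p = 0.317) had smaller values. Irgm1, Gbp7, Iigp1 and Ifi47 had fitted changes of 0.13 to 0.38 with intervals that include 0. The ranges of the groups did not overlap for 8 genes, all but Iigp1 and Ifi47, as for 21.7% of all genes in this direction. DESeq2's Wald test, the tool of the study's methods, called 4 of the 10 higher, Gbp2 (adjusted p = 0.0013), Gbp3 (0.00766), Gbp4 (0.000173) and Gbp5 (0.000721), where it called 2.72% of all genes higher. An exact permutation test of 1 gene cannot go below p = 0.333 with 2 mice against 2.

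The summed markers of immune cells were also higher in sgBap1-Veh livers. The summed level of 4 leukocyte markers was 73.8 to 94.8 CPM in sgBap1-Veh against 37.3 to 52.3 in NTC-Veh, and 1 of the 4, Ptprc (CD45), passed the test (1.05 ± 0.18, adjusted p = 0.0418), while all 4 had an unadjusted p under 0.05 and DESeq2's test called all 4. The sum of 7 markers of Kupffer cells, the macrophages resident in liver, was 394 to 586 CPM against 188 to 303, and none of the 7 passed edgeR's test, 5 had an unadjusted p under 0.05 and DESeq2's test called 5. The 9 T and NK cell markers summed to 9.18 and 9.28 CPM against 3.19 and 5.61, with 0 called by either tool and 5 at an unadjusted p under 0.05. Within the sgBap1-Veh pair the order differed: mouse 1 had the higher Kupffer cell and leukocyte sums, while mouse 2 had the higher level of all 10 GTPase genes. The part of these cells in the GTPase values was not tested.

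The comparison of NTC-CCl4 with NTC-Veh asks how the genes respond to damage in unedited livers. Gbp2, Gbp3, Gbp5, Gbp6 and Irgm1 rose with CCl4, Gbp4, Gbp7, Igtp and Ifi47 had higher fitted values that did not pass, and Iigp1 had a lower one. The 5 of 10 called higher stand beside 27.4% of all genes called higher and 53.9% called in either direction. Gbp2 rose most (1.49 ± 0.30, 2.82-fold, 95% interval 0.82 to 2.17, adjusted p = 0.00248), then Gbp3 (1.19 ± 0.19, 2.29-fold, adjusted p = 0.000472), Gbp5 (0.95 ± 0.24, 1.94-fold, adjusted p = 0.00688), Gbp6 (0.89 ± 0.30, 1.86-fold, adjusted p = 0.0347) and Irgm1 (0.50 ± 0.16, 1.42-fold, adjusted p = 0.0222). These 5 were also the genes whose NTC-CCl4 mice all lay above both NTC-Veh mice, where 36.7% of all genes did so. The fitted change of Iigp1 was −0.59 ± 0.27 (adjusted p = 0.0866 by edgeR and 0.0468 by DESeq2), with every NTC-CCl4 mouse below both NTC-Veh mice. The median over the 10 genes was 0.51, against 0.03 over all genes. This comparison shares its NTC-Veh mice with the comparison of genotypes in vehicle.

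Single mice and the scaling bear on these calls. Without NTC-Veh mouse 2, which left 1 mouse in that group, the median of the 10 was 0.46, with 7 of 10 positive. Without NTC-CCl4 mouse 1 or mouse 3 only Gbp2, Gbp3 and Gbp5 were called. Over all genes those 2 fits called 8247 of 16965 and 8191 of 16927 in either direction. With scaling by library size alone, which leaves the median of all genes at 0.50 instead of 0.03, 9 of the 10 were called higher, all but Iigp1, and 0 lower, the median of the 10 was 0.99, and 62.1% of all genes were called in either direction. All other values here are relative to the TMM scale.

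In sgBap1 livers the same treatment went with lower levels. Between sgBap1-CCl4 and sgBap1-Veh, Gbp4, Iigp1, Igtp and Gbp5 fell, and the other 6 had lower fitted values that did not pass, of which Gbp2, Gbp3 and Irgm1 turned positive with scaling by library size alone. The 4 of 10 called lower stand beside 28.0% of all genes called lower and 57.0% called in either direction. Gbp4 fell by 1.41 on the log2 scale (SE 0.20, adjusted p = 0.000173), to 0.378 of its vehicle level. Iigp1 fell by 1.07 (SE 0.27, adjusted p = 0.00651), Igtp fell by 0.90 (SE 0.26, adjusted p = 0.0139) and Gbp5 fell by 0.63 (SE 0.22, adjusted p = 0.0329). Ifi47 (−0.54 ± 0.21, adjusted p = 0.0515), Gbp6 (−0.66 ± 0.29, adjusted p = 0.0838) and Gbp7 (−0.54 ± 0.26, adjusted p = 0.100) lay nearer edgeR's threshold than Gbp2 (−0.43 ± 0.28), Gbp3 (−0.26 ± 0.18) and Irgm1 (−0.11 ± 0.16). All sgBap1-CCl4 mice lay below both sgBap1-Veh mice for 8 genes, where 34.9% of all genes did so. The margin was narrow for Gbp2 (19.5 against 19.6 CPM) and for Gbp6 (39.4 against 39.8 CPM). The median over the 10 was −0.59, against 0.04 over all genes. DESeq2's test called 6 lower, the same 4 with Gbp6 (adjusted p = 0.0346) and Ifi47 (0.0312), where it called 4690 of 20184 genes lower.

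Here too single mice decided calls. Without sgBap1-Veh mouse 2, the mouse with the higher level of all 10 genes, the median of the 10 was −0.37. Without sgBap1-CCl4 mouse 2, the library with adipocyte RNA, only Gbp4 and Iigp1 were called lower. That fit called 8855 of 16825 genes in either direction. Gbp4 was called lower under every alternative and with each mouse left out. With scaling by library size alone, Gbp4 and Iigp1 were called lower, Irgm1 was called higher and Igtp and Gbp5 no longer passed. In that setting 64.7% of all genes were called in either direction, the median of the 10 was −0.11 and that of all genes 0.52.

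**Figure D3:**
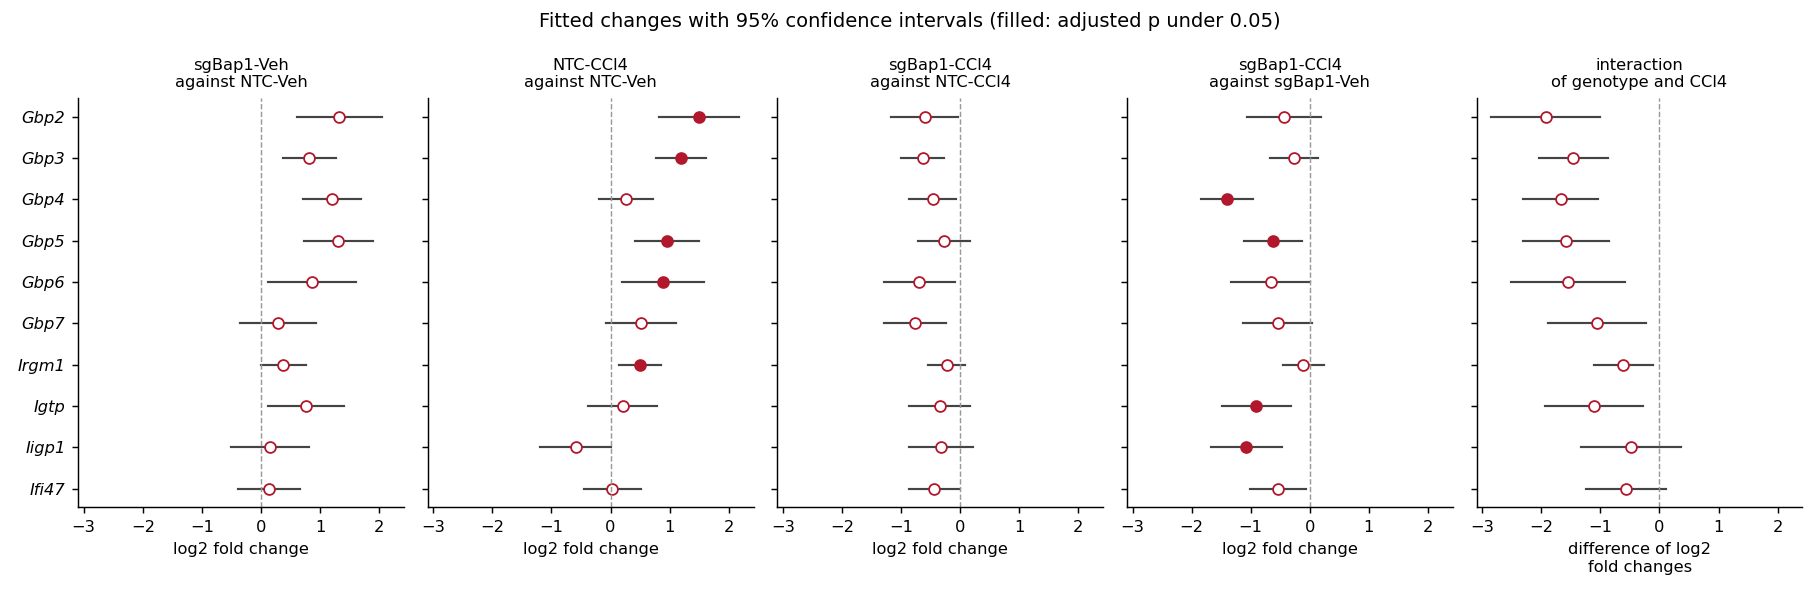
Fitted log2 fold changes (x axis) with 95% confidence intervals for each gene in the 4 pairwise comparisons, and the difference between the genotypes' responses to CCl4 in the last panel, with filled points for an adjusted p under 0.05. On the TMM scale 5 genes rose in NTC livers and 4 fell in sgBap1 livers with CCl4, and no gene passed in the comparisons of genotype or in the interaction.

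After CCl4 the fitted values of the genotypes stood the other way round from vehicle. All 10 genes had lower fitted levels in sgBap1-CCl4 than in NTC-CCl4, with a median of −0.45 against 0.00 over all genes, but none passed edgeR's test, and 6 had an unadjusted p under 0.05 (Gbp2, Gbp3, Gbp4, Gbp6, Gbp7 and Ifi47), as did 14% of all genes. The test called 0.329% of all genes. The values furthest from 0 were those of Gbp7 (−0.77 ± 0.23, adjusted p = 0.197), Gbp6 (−0.69 ± 0.26, adjusted p = 0.293) and Gbp3 (−0.63 ± 0.16, adjusted p = 0.129). For Gbp3 the 95% interval was −0.995 to −0.27, and for Irgm1, with the value nearest 0, it was −0.54 to 0.08. The groups did not overlap for 3 genes, Gbp3, Gbp6 and Ifi47, as for 10.2% of all genes in this direction. DESeq2's test called Gbp3 (adjusted p = 0.0165) and Gbp7 (0.0282) lower, 2 of 10, where it called 1.79% of all genes lower. With 3 mice against 3 the smallest exact permutation p is 0.1 for 1 gene.

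The summed markers of immune cells overlapped between the CCl4 groups. The leukocyte sum was 213 to 262 CPM in sgBap1-CCl4 and 212 to 258 in NTC-CCl4, and the sums of the monocyte and macrophage markers were 517 to 728 and 529 to 658. The Kupffer cell sum was 489 to 719 CPM in sgBap1-CCl4 against 522 to 976 in NTC-CCl4. Of these 17 markers 0 were called by either tool, and 0 had an unadjusted p under 0.05. Fitted values were negative for 7 of 7 Kupffer cell, 2 of 4 leukocyte and 2 of 6 monocyte and macrophage markers. They were also negative for 7 of 9 T and NK cell and 4 of 4 B cell markers. Of the 6 monocyte and macrophage markers, 4 had positive values. Only 1 of them, Ly6c2, was lower in sgBap1-CCl4 without overlap (6.84 to 8.61 against 9.58 to 9.84 CPM), as were 10.2% of all genes. Of the 4 B cell markers 2 were lower without overlap, and 1 had an unadjusted p under 0.05 with 0 called by either tool. sgBap1-CCl4 mouse 2 had the highest leukocyte and Kupffer cell sums of its group and the lowest level of 7 GTPase genes. Between sgBap1-CCl4 and sgBap1-Veh, where 4 GTPase genes fell, the marker lists went different ways. All 6 monocyte and macrophage markers and all 4 leukocyte markers rose, 2 of 7 Kupffer cell markers fell (Clec4f from 143 ± 37.9 to 58.5 ± 9.95 CPM, and Timd4) and 1 rose (Marco), and 3 of 4 dendritic cell markers fell (Xcr1, Zbtb46 and Clec9a) and 1 rose (Flt3). Of the 9 T and NK cell markers 6 had negative values, 0 passed edgeR's or DESeq2's test and 1 had an unadjusted p under 0.05. The part of cell composition in these values was not tested.

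The interaction asks whether the response to CCl4 differed between the genotypes. All 10 estimates were negative, that is, the change with CCl4 was lower in sgBap1 than in NTC livers, with a median of −1.28 against −0.02 over all genes. No gene of the 10 passed edgeR's test, and 8 had an unadjusted p under 0.05. The test called 0 of the 17015 genes (0%), with 1764 (10.4%) at an unadjusted p under 0.05 and 406 called by DESeq2. The estimate was −1.93 ± 0.40 for Gbp2 (adjusted p = 0.127), −1.67 ± 0.29 for Gbp4 (0.0694), −1.58 ± 0.33 for Gbp5 (0.104), −1.55 ± 0.42 for Gbp6 (0.224) and −1.46 ± 0.26 for Gbp3 (0.0762). Igtp (−1.11 ± 0.37) and Gbp7 (−1.06 ± 0.37) followed, and Irgm1, Ifi47 and Iigp1 had values of −0.48 to −0.61. DESeq2's test called 5 of the 10 negative, Gbp2 (adjusted p = 0.000248), Gbp3 (7.31e-05), Gbp4 (7.31e-05), Gbp5 (0.0024) and Gbp6 (0.00693), where it called 2.00% of all genes negative. The estimates of Gbp2 to Gbp6 lay further from 0 than those of Gbp7 and the 4 IRGs, a difference between members that was not tested.

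Many immune cell markers also had negative interaction estimates. All 7 Kupffer cell markers had negative estimates (median −1.26), as did all 9 T and NK cell markers (−1.12), all 4 B cell markers (−1.01), all 4 leukocyte markers (−0.86) and all 6 monocyte and macrophage markers (−0.79). None of these 30 passed edgeR's test. An unadjusted p under 0.05 was reached by 6, 3, 4, 4 and 4 of them in that order, and DESeq2's test called 3, 0, 0, 1 and 3. Negative estimates were fewer among the markers of dendritic cells (3 of 4), neutrophils (2 of 3 tested), endothelial cells (4 of 5), stellate cells (2 of 4) and hepatocytes (1 of 6), of which 0 were called by either tool. Their part in the GTPase estimates was not tested.

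Among the relatives of these genes in the same 2 families, 17 of 18 were tested, all but the testis gene Irgc1, and Gbp2b (the gene also called Gbp1, next to Gbp2 on chromosome 3) was the one that passed edgeR's test in sgBap1-Veh livers (2.21 ± 0.38, adjusted p = 0.0444). In that comparison 15 of the 17 had positive values, 11 had an unadjusted p under 0.05 and DESeq2's test called 5 higher. The NTC-Veh mice had 2.695 and 1.66 CPM of Gbp2b, the sgBap1-Veh mice 9.88 and 10.4, and the sgBap1-CCl4 mice 0.238 to 0.531, where it fell. With CCl4 in NTC livers 7 of the 17 rose (Gbp9, Tgtp1, Tgtp2, Gm12250, 9930111J21Rik1, 9930111J21Rik2 and Gm5431) and 5 fell (Gbp2b, Gbp11, Gm4951, F830016B08Rik and Irgq), with Gbp9 at 1.55 ± 0.15 and Gbp11 at −1.93 ± 0.45. The change of Irgq (−0.36) was smaller than the shift between the scalings. In sgBap1 livers 9 fell (Gbp2b, Gbp8, Gbp10, Gbp11, Irgm2, Tgtp2, Gm4841, Gm4951 and F830016B08Rik) with 0 called higher and a median of −0.90 over the 17. Between the genotypes after CCl4, and in the interaction, 0 of the 17 passed, with 7 and 11 at an unadjusted p under 0.05 and 2 and 8 called by DESeq2. By the 50-base measure, 84.07% of Gbp10, 81.23% of Tgtp1, 86.57% of Tgtp2, 82.86% of 9930111J21Rik1, 59.2% of 9930111J21Rik2 and 37.34% of Gm5431 recur in other genes, so their values are uncertain, and Gbp9 overlaps Gbp4 and Gbp8 on the same strand.

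The pathway above the GTPases gave a mixed picture. Ifng RNA itself was at or under 3 counts in 7 of the 10 mice, with at most 6 counts in any. The counts were 2 and 0 in NTC-Veh, 6 and 5 in sgBap1-Veh, 3, 2 and 6 in NTC-CCl4 and 2, 1 and 2 in sgBap1-CCl4. Both sgBap1-Veh mice had the highest Ifng levels (0.161 and 0.187 CPM, against at most 0.156 elsewhere), but counts this low were left out by the filter and not tested. In sgBap1-Veh livers Irf8, a transcription factor of macrophages, rose (0.95 ± 0.16, adjusted p = 0.0418) as the 1 of 12 genes that passed edgeR's test. Of the 12, 9 had positive values (median 0.13), 2 had an unadjusted p under 0.05 and DESeq2's test called 2 higher. With CCl4 the receptor chain Ifngr1 rose in both genotypes (1.38 ± 0.11 in NTC, 1.35 ± 0.11 in sgBap1), as did Jak1, Jak2, Irf8 and the feedback inhibitors Socs1 and Socs3, among 7 of the 12 called higher in each genotype. Ifngr2 rose in sgBap1 livers (0.69 ± 0.14) with a value of 0.32 ± 0.14 in NTC. Irf1 fell with CCl4 in sgBap1 livers (−0.68 ± 0.12, adjusted p = 0.00082) and had a value of −0.09 ± 0.12 in NTC. The interaction of Irf1 was −0.60 ± 0.17 (adjusted p = 0.228), so this difference between genotypes did not pass. Interaction estimates were negative for 9 of the 12 (median −0.14). EdgeR's test called 0, DESeq2's test called 2 negative and 4 had an unadjusted p under 0.05.

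**Figure D4:**
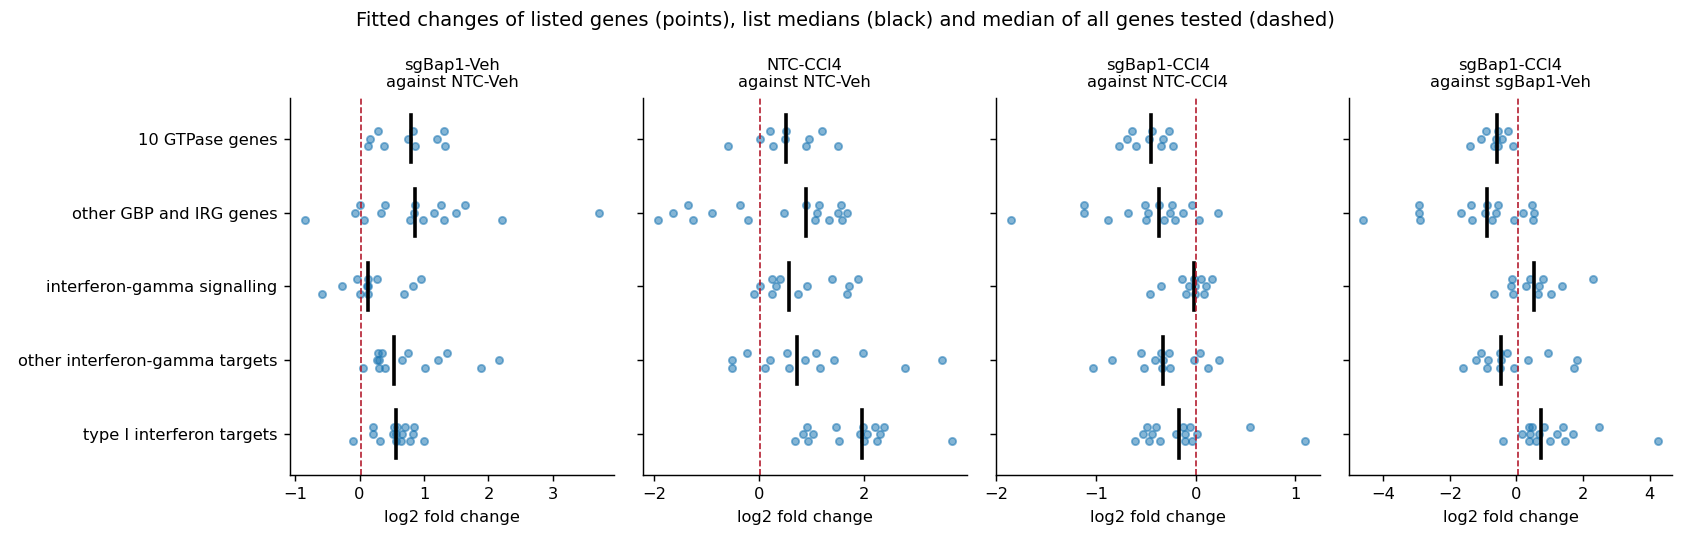
Fitted log2 fold changes (x axis) of the tested genes of 5 lists in the 4 pairwise comparisons, with black bars for list medians and a dashed line for the median of all genes tested. The GTPase median is 0.79, 0.51, −0.45 and −0.59 from left to right, and the type I interferon targets have medians of 1.95 and 0.74 with CCl4 in NTC and sgBap1 livers.

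Other targets of interferon-gamma shared part of the pattern. Of 14 tested, 1 rose in sgBap1-Veh livers, Cd74, the invariant chain of MHC class II (1.35 ± 0.21, adjusted p = 0.0385), and all 14 had positive values, with a median of 0.53, 11 at an unadjusted p under 0.05 and 7 called higher by DESeq2. Cxcl9, a chemokine that interferon-gamma induces, was at 33.2 and 45.9 CPM against 11.3 and 6.37 (2.16 ± 0.42, adjusted p = 0.0826), and Ciita, the activator of MHC class II genes, had a value of 1.22 ± 0.26 (adjusted p = 0.0817). With CCl4, 9 rose and 2 fell in NTC livers, and 3 rose and 7 fell in sgBap1 livers. Between the genotypes after CCl4, 11 of the 14 had negative values, with 7 at an unadjusted p under 0.05, 2 called lower by edgeR and 4 by DESeq2. Psmb8, a subunit of the immunoproteasome, and the chemokine Cxcl11 were the 2 called lower, with changes of −0.55 ± 0.08 (adjusted p = 0.0347) and −0.84 ± 0.14 (adjusted p = 0.0479). In the interaction 13 of the 14 were negative (median −1.06), with 0 called by edgeR, 12 at an unadjusted p under 0.05 and 10 called by DESeq2.

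Of the type I interferon targets, 15 of 16 in sgBap1-Veh livers had positive values (median 0.57), with 8 at an unadjusted p under 0.05 and 4 called higher by DESeq2. After CCl4 13 of the 16 had lower fitted values in sgBap1 than in NTC livers (median −0.16), with 0 called by edgeR or DESeq2. An unadjusted p under 0.05 was reached by 5, of which 3 were lower and 2 higher. In the interaction 14 were negative (median −0.83), with 0 called by edgeR, 11 at an unadjusted p under 0.05 and 6 called by DESeq2. All 16 rose with CCl4 in NTC livers, with a median of 1.95, and in sgBap1 livers 9 rose and 0 fell, with a median of 0.74. Oas1a, an antiviral synthetase, was the 1 that passed edgeR's test in sgBap1-Veh livers (0.85 ± 0.14, adjusted p = 0.0438). The difference between this list and the 10 GTPase genes, of which 0 rose and 4 fell with CCl4 in sgBap1 livers, was not tested. Among 18 genes whose products work with GBPs and IRGs, 0 passed edgeR's test between the genotypes in vehicle (5 at an unadjusted p under 0.05, 2 called by DESeq2). Casp4, the caspase that GBPs help to activate, rose with CCl4 in NTC (1.42 ± 0.22, adjusted p = 0.00039) and in sgBap1 livers (0.58 ± 0.21, adjusted p = 0.0343), while the autophagy gene Atg3 fell in both (−0.87 ± 0.11 and −1.15 ± 0.11).

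**Figure D5:**
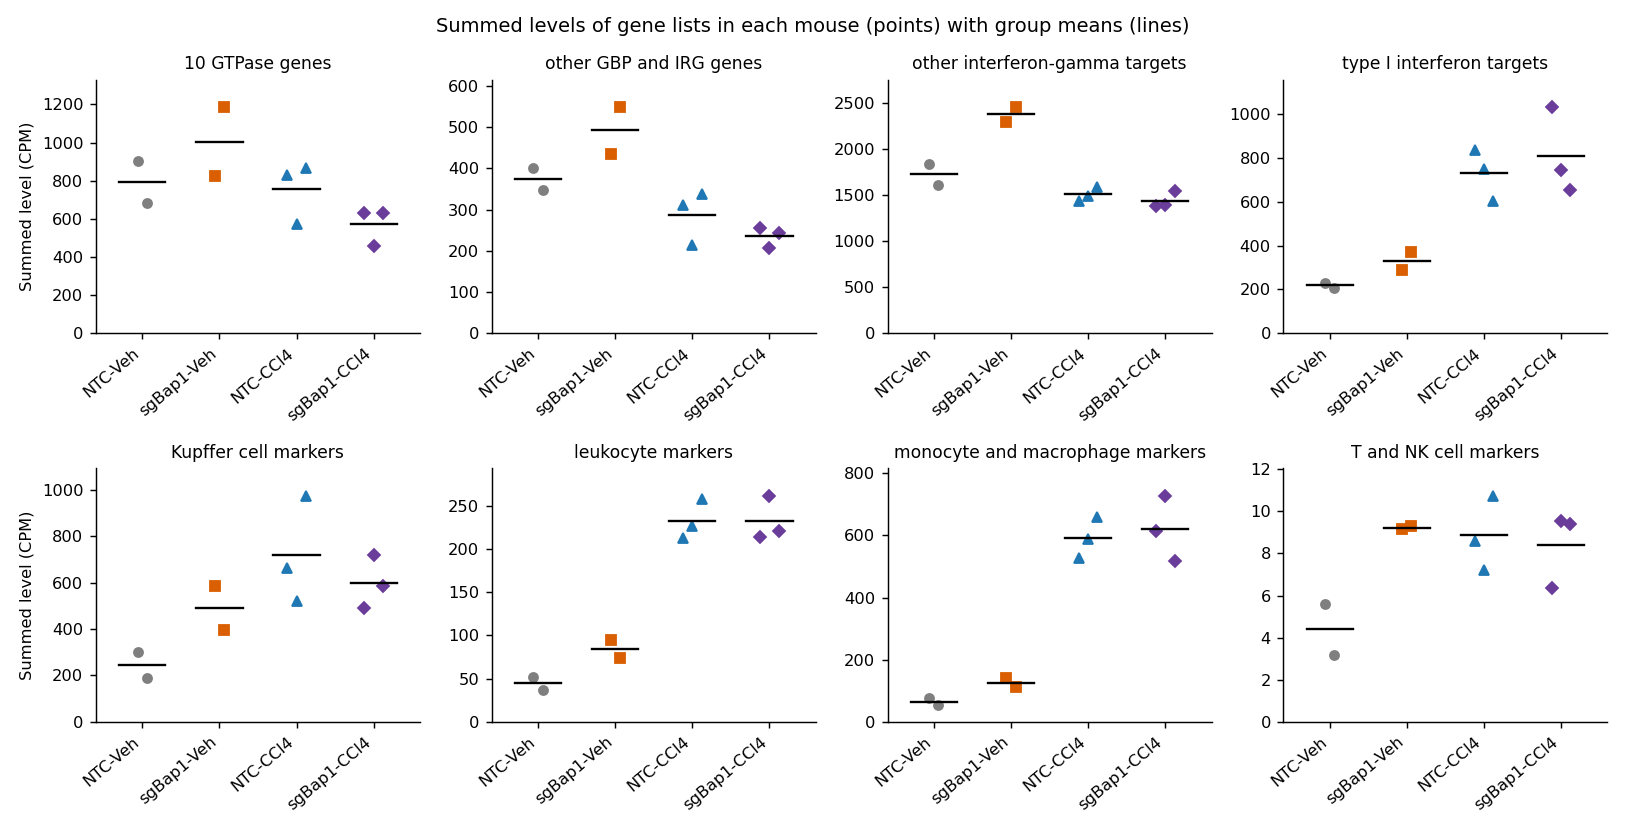
Summed CPM (y axis, from 0) of 8 gene lists in each mouse (points) by group, with group means as lines. The 10 GTPase genes sum to 460 to 632 CPM in sgBap1-CCl4 mice, all below the 822 and 1187 of sgBap1-Veh, whereas the leukocyte sums are 213 to 262 CPM in sgBap1-CCl4 mice, above the 73.8 and 94.8 of sgBap1-Veh.

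The summed level of the 10 genes, which Iigp1 dominates, was 905 and 683 CPM in NTC-Veh mice, 822 and 1187 in sgBap1-Veh, 831, 572 and 865 in NTC-CCl4, and 632, 460 and 628 in sgBap1-CCl4. The genes most like the mean profile of the 10 over the 10 mice, by the smallest root mean square difference of centred log2(CPM + 0.5), were Ubash3a (0.154), Xcl1 (0.172), Gimap7 (0.194), Psme2b (0.195), Gm11868 (0.197) and Cd226 (0.200). Of these 6 only Psme2b, which overlaps 9930111J21Rik1, exceeded 1.301 CPM in any mouse (3.71 to 5.73 CPM), and at such levels the pseudocount pulls the differences towards 0. For comparison, the members themselves differed from their own mean profile by 0.171 (Igtp) to 0.434 (Iigp1).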

How the data were processed

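Liver RNA of 10 mice was sequenced from stranded mRNA libraries. The authors aligned the reads with STAR 2.7.6a to mm10 and deposited estimated counts per gene from Salmon 1.4.0 for GENCODE vM25, 1 table of 55291 genes with no normalization, in which 9.22% of the values were not whole. Library totals and the floor of 3 counts are given with the results. They cover counting error only.

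Estimated counts were rounded, and edgeR 4.0.16 in R 4.3.3 fitted 1 quasi-likelihood model of the 4 groups with TMM factors on the 17015 genes kept by filterByExpr. Tests were two-sided with Benjamini-Hochberg adjustment over these genes and a threshold of 0.05. A standard error is the size of the log2 fold change divided by the root of its F statistic. The deposited study used DESeq2, so its Wald test (version 1.42.0) was an alternative, beside other size factors, filters, a replicate block, only the groups compared, the earlier edgeR method and each mouse left out. Scaling by library size alone was added after the data were seen. The script was tested on simulated data. A CPM per kb divides by the exon length of GENCODE vM21, the annotation at hand, whose positions are printed.

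The 10 genes and the gene lists were chosen with earlier results of these data known. Named are all 10, the relatives and signalling genes that passed any test, some signalling genes in any case, from other lists the gene of smallest p in a comparison with Cxcl9, Ciita, Casp4 and Ptprc, the 6 genes of most similar profile (pseudocount 0.5), and Bap1. Some genes that meet this rule are left out, and Adipoq, Plin1, Atg3 and some markers of Kupffer and dendritic cells are named beside it, after their values were seen. Protein sequences were not analysed here.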

Additional observations from a re-analysis of the deposited data

How the results depend on the processing

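Of the 5 counts of GTPase genes called, each moved under some alternative. For sgBap1-Veh against NTC-Veh (0 called) the count was 2 with no filter on low counts (Gbp4 and Gbp5) and 4 with DESeq2's test, and 0 to 2 with single mice left out, 2 without NTC-CCl4 mouse 3 and 1 without sgBap1-CCl4 mouse 2. For NTC-CCl4 against NTC-Veh (5 called) it was 9 with library size alone and 2 to 6 with mice left out. For sgBap1-CCl4 against NTC-CCl4 (0 called) it was 2 with DESeq2's test and 0 to 1 with mice left out, the 1 being Gbp7 without NTC-CCl4 mouse 2. For sgBap1-CCl4 against sgBap1-Veh (4 called) it was 6 with DESeq2's test and with only the groups compared, 5 with DESeq2's size factors, 3 with library size alone (2 lower and 1 higher) and 1 to 5 with mice left out. For the interaction (0 called) it was 1 with no filter (Gbp4) and 5 with DESeq2's test, and 0 with any mouse left out. The cause of these shifts was not tested. With CCl4 the calls over all genes were 9178 in NTC and 9700 in sgBap1 livers by edgeR. They were 8982 and 9474 by DESeq2, and 9067 and 8777 with only the groups compared. Over all genes the calls between the genotypes were 69 in vehicle and 56 with CCl4 by edgeR against 551 and 480 by DESeq2, 27 and 28 with only the groups compared, and 103 and 94 with no filter, and the interaction had 0 against 406 by DESeq2 and 34 with no filter.

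Correlations of same-numbered deviations from the group means over all tested genes ran from −0.194 to 0.0502. Between the vehicle groups, with 2 mice each, both numbers give the same value (−0.0437). These values give no sign of pairing by replicate number but cannot show that same-numbered mice shared nothing. With the replicate block 0, 4, 0, 6 and 0 of the 10 genes were called in the 4 comparisons and the interaction. In NTC livers Gbp6 and Irgm1 were lost and Iigp1 was called lower, and in sgBap1 livers Gbp2 and Ifi47 were gained. Over all 17015 genes the block gave 8411 calls with CCl4 in NTC livers and 8898 in sgBap1 livers. Between the genotypes it gave 1 call in vehicle and 24 with CCl4. Log2 fold changes of the 10 genes kept their direction and side of the threshold in 820 fits and gained the threshold in 37, lost it in 20 and changed sign in 13. With single mice left out, the changes of sign were between the genotypes in vehicle for Iigp1 (−0.14 to 0.40) and Ifi47 (−0.16 to 0.49), with CCl4 in NTC livers for Igtp (−0.0067 to 0.46) and Ifi47 (−0.26 to 0.38), and with CCl4 in sgBap1 livers for Irgm1 (−0.29 to 0.11). Ifi47 was also at −0.0105 in NTC livers with the replicate block, and Gbp2, Gbp3 and Irgm1 were at 0.045, 0.21 and 0.37 in sgBap1 livers with library size alone. A group left with 1 mouse was assumed to vary like the others.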
